A study of Mus musculus with 16 samples.

Results

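Gpam and 9 other genes of triglyceride and fatty acid synthesis were followed in mouse rotator cuff muscle after a tendon and nerve injury. The 10 genes, Gpam, Agpat3, Lpin1, Dgat1, Dgat2, Scd1, Scd2, Fasn, Acaca and Acacb, were picked by name. All 10 were among the 11710 genes of the count table, and all 10 passed the filter on low counts, as did 11709 genes in all. Gpam was picked because of its large fall after surgery, so its own values are given as a description without a test.

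Triglyceride is built on glycerol-3-phosphate. Glycerol-3-phosphate acyltransferases such as Gpam add the first fatty acid, the Agpat enzymes the next, lipins remove the phosphate, and the diacylglycerol acyltransferases Dgat1 and Dgat2 add the last fatty acid. The fatty acids can be made in the cell, where acetyl-CoA carboxylase (Acaca in the cytosol, Acacb at the mitochondrial surface) supplies malonyl-CoA, fatty acid synthase (Fasn) builds palmitate and stearoyl-CoA desaturases (Scd1, Scd2) introduce a double bond. In muscle, malonyl-CoA made by Acacb is best known as an inhibitor of fatty acid entry into mitochondria, whereas Fasn and Scd1 are strongly expressed in fat cells.

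RNA was sequenced from 16 samples in 4 groups of 4: unoperated C57BL/6J (BL6), operated C57BL/6J, unoperated MRL/MpJ (MRL) and operated MRL/MpJ. BL6 is a widely used reference strain, and MRL is an inbred strain studied for its healing of ear wounds. Operated muscle had its tendon removed and its nerve supply cut, and unoperated mice served as controls. The labels do not say that each sample came from a separate animal, so the p-values measure only the spread between these samples, which may be technical. Age, sex and the time between surgery and collection are not given in the sources used here. Values are CPM, the counts of a gene per 1000000 counts of its library after scaling by trimmed mean of M values (TMM).

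Total counts ranged from 24323862 to 43552964 per library. Markers of muscle fibres summed to between 52170 and 157459 CPM in every library. Several libraries stood apart. Operated MRL replicate 4 correlated over genes with unoperated MRL libraries at a mean r of 0.951 and with its own group at 0.949, and its mitochondrially encoded genes took 11.8% of counts where the other operated MRL libraries had 20.1% to 24.9%. Unoperated MRL replicate 1 had a mean r of 0.969 with its group, against 0.983 to 0.984 for the others, and operated BL6 replicate 4 one of 0.931 with its own group. Results that rest on these 3 libraries are given with and without them, an alternative chosen after seeing the data. Operated BL6 replicate 2, with a mean r of 0.948 with its own group and 0.937 with unoperated BL6 libraries, was not among the 3.

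In the GRCm38 annotation (GENCODE M21), Gpam (ENSMUSG00000024978) lies on chromosome 19 at 55067268-55127238, minus strand. Scd1 (44394455-44407879, minus strand) and Scd2 (44293674-44306864, plus strand) are on chromosome 19 as well, Fasn (120805846-120824547, minus strand) and Acaca (84129672-84401651, plus strand) on chromosome 11, and the other members on 5 different chromosomes. RefSeq's table of promoters for GRCm38.p6 held 7 promoters of 6 of the 10 members. The 250 bases before the start are shown for Gpam, which has an upstream and a downstream start, for Lpin1, the other member with a large fall in both strains, and for Fasn, a member that rose. They are written 5′ to 3′ along the gene, and capitals mark matches on either strand to CCAAT (the CCAAT box) or GGGCGG (the GC box).
Gpam upstream start, chr19:55127239-55127488, minus strand: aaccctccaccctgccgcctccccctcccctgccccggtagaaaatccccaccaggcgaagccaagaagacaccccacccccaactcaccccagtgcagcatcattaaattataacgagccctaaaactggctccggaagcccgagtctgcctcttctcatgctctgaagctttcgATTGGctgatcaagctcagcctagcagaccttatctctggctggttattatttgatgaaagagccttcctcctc
Gpam downstream start, chr19:55099478-55099727, minus strand: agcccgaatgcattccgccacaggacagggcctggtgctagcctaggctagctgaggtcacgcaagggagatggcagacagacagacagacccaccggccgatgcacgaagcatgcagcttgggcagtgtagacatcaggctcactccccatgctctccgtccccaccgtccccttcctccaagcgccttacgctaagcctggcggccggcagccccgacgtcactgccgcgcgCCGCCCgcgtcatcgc
Lpin1, chr12:16610967-16611216, minus strand: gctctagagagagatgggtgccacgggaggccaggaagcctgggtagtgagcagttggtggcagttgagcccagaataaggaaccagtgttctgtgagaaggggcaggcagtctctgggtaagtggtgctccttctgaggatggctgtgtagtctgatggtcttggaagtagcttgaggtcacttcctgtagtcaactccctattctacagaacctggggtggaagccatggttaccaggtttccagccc
Fasn, chr11:120824548-120824797, minus strand: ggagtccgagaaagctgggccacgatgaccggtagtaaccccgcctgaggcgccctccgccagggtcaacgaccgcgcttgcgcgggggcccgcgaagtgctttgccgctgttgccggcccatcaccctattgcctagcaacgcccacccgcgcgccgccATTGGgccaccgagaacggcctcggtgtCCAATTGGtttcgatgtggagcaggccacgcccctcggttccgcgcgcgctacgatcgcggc
The upstream Gpam promoter held 1 CCAAT match, 74 bases before the start, and the downstream one held 1 GC box. Fasn held 3 CCAAT matches, of which the pair nearest the start overlaps as CCAATTGG. Of all 32851 promoters of that length, 33.8% hold CCAAT and 32.7% hold GGGCGG. The sterol regulatory element TCACNCCAC (1.05% of all promoters) and the E-box CACGTG (6.02%) matched in none of the 7 promoters, which says only that these letters are not in these windows.

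Gpam encodes the mitochondrial glycerol-3-phosphate acyltransferase, which starts the pathway. In unoperated BL6 muscle it stood at 142, 162, 194 and 204 CPM in replicates 1 to 4, and in operated BL6 muscle at 9.32, 11.3, 10.3 and 6.45 CPM. The groups were far apart, with every operated library more than 10 times below every unoperated one. The mean fell from 175 ± 28.9 to 9.34 ± 2.09 CPM (SD, n = 4). The fitted log2 fold change was -4.23 (SE 0.66), an 18.8-fold lower level. In whole muscle, fewer cells of a type and less RNA per cell cannot be told apart.

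MRL muscle showed the same low level in 3 of its 4 operated libraries. Unoperated MRL libraries held 42.9, 115, 154 and 112 CPM of Gpam, and operated ones 7.31, 9.36, 11.1 and 72.5 CPM. Replicate 1 was the low one of the unoperated group and replicate 4 the high one of the operated group, so the groups overlapped. The log2 fold change was -2.07 (SE 0.60) with all libraries and -3.77 (SE 0.24) without these 2 libraries. Without operated MRL replicate 4 alone it was -3.51. The difference between the strains' changes was 2.16 (SE 0.83) on the log2 scale with all libraries and 0.47 (SE 0.28) without the pair, and among operated samples MRL minus BL6 went from 1.43 to -0.01. All of these are descriptions, because Gpam was chosen for its fall.

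Counts per kilobase of exon allow the members to be ordered. In unoperated BL6 muscle the order began with Lpin1 at 47.2 ± 5.88 CPM per kilobase, Acacb at 34.1 ± 6.45, Dgat2 at 26.6 ± 7.49 and Gpam at 26.3 ± 4.34 (SD, n = 4), and the last 2 did not differ beyond their spread. In operated BL6 muscle Scd1 led with 54.8 ± 43.9, Acacb (16.9 ± 5.10), Lpin1 (16.2 ± 8.64) and Dgat2 (15.97 ± 3.22) followed within their spread, and Gpam was the ninth of 10 with 1.402 ± 0.313. In MRL Gpam went from the fifth place, at 15.9 ± 6.94, to the ninth, at 3.76 ± 4.75.

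**Figure D1:**
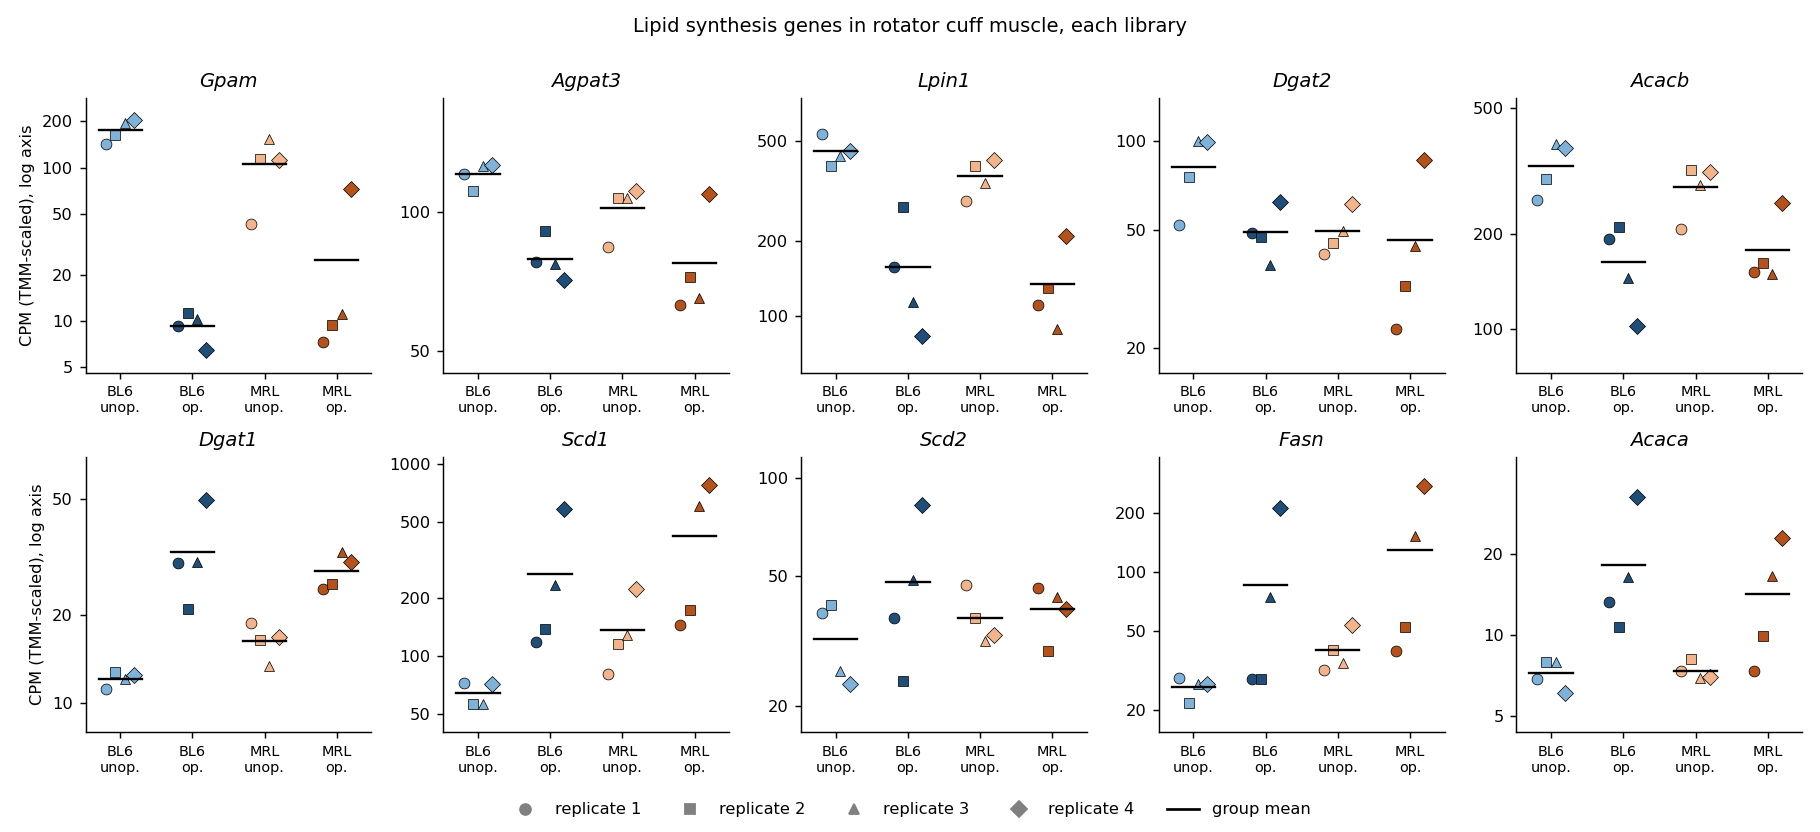
Level of each of the 10 genes in CPM (log axis, own scale per panel) in the 16 libraries, by strain and surgery (unop., unoperated; op., operated); symbols mark the replicate and bars the group mean. Gpam lies between 6.45 and 11.3 CPM in 7 of the 8 operated libraries and at 72.5 CPM in operated MRL replicate 4, while Fasn and Scd1 are highest in replicates 3 and 4 of the operated groups.

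Gpat4 and Gpat3, acyltransferases for the same step, were not called in either strain with all libraries. Gpat4, an enzyme of the endoplasmic reticulum, stood at 61.4 ± 7.01 CPM in unoperated and 49.1 ± 4.64 in operated BL6 muscle (SD, n = 4), and its log2 fold changes of -0.32 in BL6 (adjusted p = 0.0740) and -0.26 in MRL (adjusted p = 0.177) did not pass the test, although the BL6 groups did not overlap. Without the 3 libraries that stand apart Gpat4 was called lower in both strains (log2 fold changes of -0.41, adjusted p = 0.00304, and -0.55, adjusted p = 0.000740). Gpat3, its close relative, had log2 fold changes of 0.22 (adjusted p = 0.274) and 0.07 (adjusted p = 0.756). Per kilobase of exon, Gpam made up 71.3% ± 1.84 of the summed level of the 3 genes in unoperated BL6 muscle and 13.7% ± 3.14 in operated BL6 muscle (SD, n = 4), and Gpat4 went from a mean of 25.0% to one of 71.5%. In MRL the share of Gpam was 44.4% to 67.9% in unoperated and 12.3% to 47.6% in operated libraries, the highest operated value being that of replicate 4. Gpam had the largest share of the 3 genes in all 8 unoperated libraries and in operated MRL replicate 4, and Gpat4 had it in the other 7 operated libraries. A level per kilobase of exon assumes that all annotated exons are read equally.

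**Figure D2:**
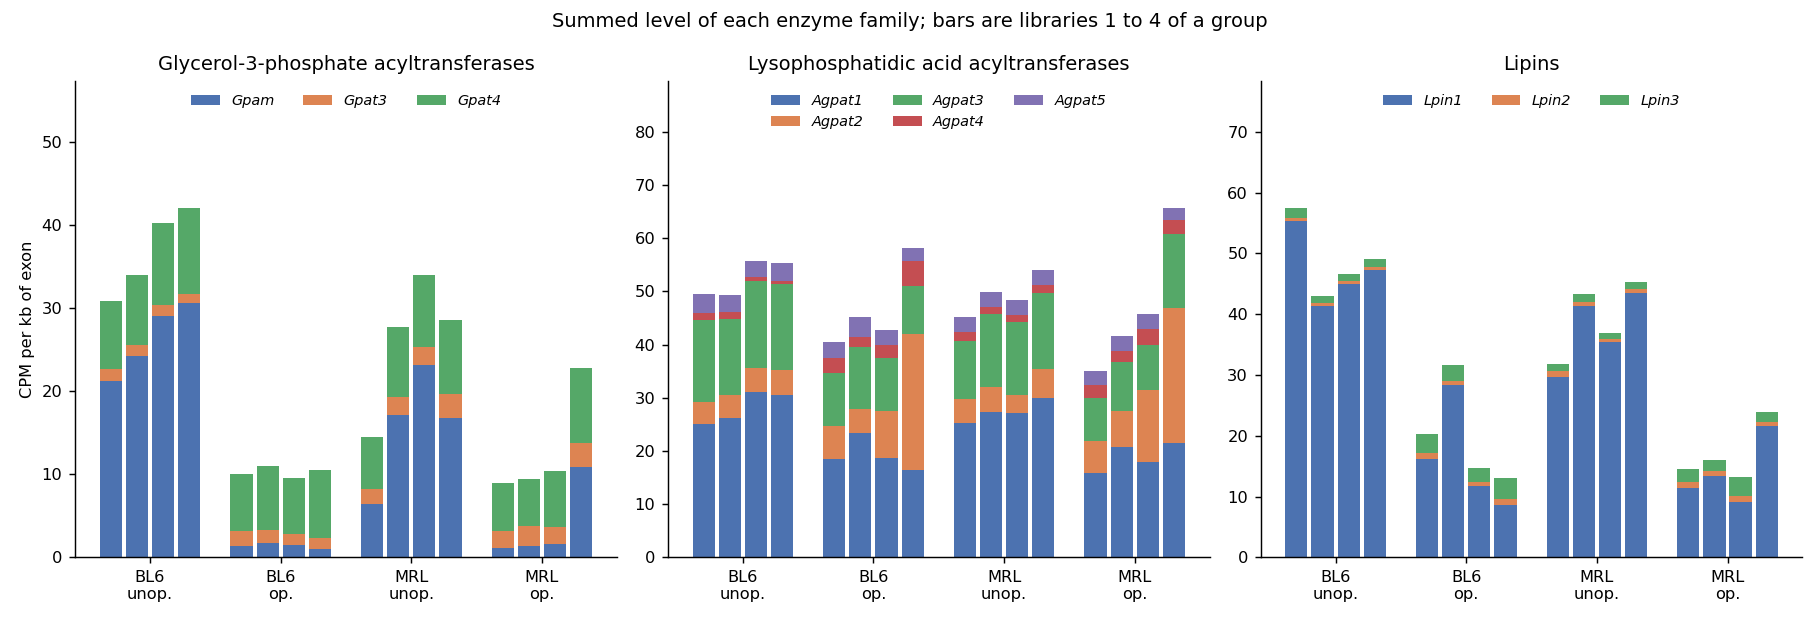
Summed CPM per kilobase of exon of 3 enzyme families in each library (stacked bars, replicates 1 to 4 from left to right in each group; unop., unoperated; op., operated). The Gpam layer shrinks in 7 of the 8 operated libraries beside a Gpat4 layer of similar height, Agpat2 is widest in replicate 4 of both operated groups, and Lpin1 makes up most of the lipin level throughout.

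Agpat3 and Lpin1, the members of the next steps, fell in both strains. Agpat3, which acylates lysophosphatidic acid, had 121, 111, 126 and 127 CPM in unoperated BL6 and 78.1, 90.8, 77.0 and 71.3 CPM in operated BL6 libraries. These groups did not overlap, and the log2 fold change was -0.61 (SE 0.16, adjusted p = 0.00311). In MRL it had 84.1, 107, 107 and 111 CPM in unoperated and 62.8, 72.4, 65.1 and 110 CPM in operated libraries, with the high operated value again in replicate 4. The MRL change of -0.40 (SE 0.16, adjusted p = 0.0488) was just under the threshold of 0.05.

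Lpin1, the phosphatidate phosphatase that muscle expresses most, stood at 534, 400, 435 and 457 CPM in unoperated and 157, 273, 113 and 83.0 CPM in operated BL6 libraries. Every operated value lay below every unoperated one, and the change was -1.54 (SE 0.32, adjusted p = 0.000628). MRL values were 287, 400, 342 and 420 CPM unoperated and 110, 130, 88.7 and 209 CPM operated, also without overlap, for a change of -1.43 (SE 0.32, adjusted p = 0.00346). Per kilobase, Lpin1 was the highest of the 10 members in both unoperated groups and held 96.4% ± 0.0888 of the lipin level in unoperated and 78.9% ± 9.60 in operated BL6 muscle. Lpin3 rose by 1.16 (SE 0.21, adjusted p = 0.000216) in BL6 and 0.89 (SE 0.21, adjusted p = 0.00439) in MRL, and Lpin2 rose in BL6 by 0.70 (adjusted p = 0.00241). In MRL the Lpin2 change of 0.40 did not pass the test (adjusted p = 0.0677). It did without unoperated MRL replicate 1 (adjusted p = 0.0173) or operated MRL replicate 4 (0.0264). Without both of these Lpin2 rose by 0.65 in MRL (adjusted p = 0.00458), and without the 3 libraries that stand apart by 0.64 (0.002).

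The last step was read through Dgat1 and Dgat2, unrelated enzymes for the same reaction. Dgat1 stood at 11.1, 12.8, 12.1 and 12.5 CPM in unoperated and 30.2, 20.9, 30.5 and 49.6 CPM in operated BL6 libraries. It was higher in every operated library, by 1.44 on the log2 scale (SE 0.20, adjusted p = 3.75e-05). In MRL it went from 18.7, 16.5, 13.4 and 16.8 CPM to 24.6, 25.7, 32.9 and 30.3 CPM, a rise of 0.80 (SE 0.20, adjusted p = 0.00585) without overlap. Dgat1 is the only member tested that rose without overlap in both strains, and the share of all genes that did so is not given here.

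Dgat2 did not pass edgeR's test in either strain with all libraries and groups in the fit. Its BL6 values were 51.9, 75.9, 100 and 99.7 CPM unoperated and 48.8, 47.5, 38.3 and 62.3 CPM operated, with a log2 fold change of -0.74 (SE 0.32, adjusted p = 0.0522). The groups overlapped through unoperated replicate 1 and operated replicate 4, and without either one the fall passed the test (adjusted p = 0.0269 and 0.0409). With all 8 BL6 libraries it also passed with DESeq2 (adjusted p = 0.0325), with only the BL6 groups fitted (0.0150), with a replicate block (0.0155) and without mitochondrially encoded genes (0.0442). MRL values were 41.6, 45.4, 49.9 and 61.5 CPM unoperated and 23.1, 32.3, 44.1 and 86.4 CPM operated, a change of -0.09 (SE 0.32, adjusted p = 0.827), and without the 3 libraries that stand apart of -0.67 (adjusted p = 0.0325).

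Acaca and Acacb moved in opposite directions. Acacb had 256, 298, 386 and 374 CPM in unoperated and 193, 210, 145 and 102 CPM in operated BL6 libraries, a fall of 1.02 on the log2 scale (SE 0.24, adjusted p = 0.00156) without overlap. In MRL it went from 208, 320, 287 and 313 CPM to 151, 161, 150 and 251 CPM, where replicate 4 overlapped the unoperated group, with a change of -0.66 (SE 0.23, adjusted p = 0.0320). Acaca had 6.88, 7.92, 7.95 and 6.12 CPM in unoperated and 13.2, 10.7, 16.4 and 32.5 CPM in operated BL6 libraries, a rise of 1.34 (SE 0.34, adjusted p = 0.00281) with all operated libraries above all unoperated ones. MRL libraries had 7.37, 8.18, 6.93 and 7.02 CPM unoperated and 7.35, 9.88, 16.6 and 22.8 CPM operated, where replicate 1 stayed within the unoperated range, and the rise was 0.95 (SE 0.34, adjusted p = 0.0328). The Acaca count is uncertain, because 6118 bases of its transcripts are 99.2% identical to the pseudogene Gm5182. Acacb carried 98.7% of the acetyl-CoA carboxylase level per kilobase in unoperated and 93.1% in operated BL6 muscle, and Acaca had the lowest mean of the 10 members per kilobase in all 4 groups. In operated BL6 muscle Acaca (1.07 ± 0.574) and Gpam (1.402 ± 0.313) did not differ beyond their spread.

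Fasn and Scd1 rose most, and unevenly between libraries. Fasn had 29.0, 21.5, 26.9 and 27.0 CPM in unoperated and 28.7, 28.8, 74.8 and 212 CPM in operated BL6 libraries. Operated replicates 1 and 2 lay within the unoperated range and replicates 3 and 4 far above it, and the log2 fold change was 1.72 (SE 0.62, adjusted p = 0.0229). In MRL the values were 31.9, 40.5, 34.7 and 54.0 CPM unoperated and 39.8, 52.8, 152 and 274 CPM operated, with the same replicates high and a change of 1.69 (SE 0.62, adjusted p = 0.0376). In BL6 the call was lost without operated replicate 4 (0.75, adjusted p = 0.217) or without unoperated replicate 2 (adjusted p = 0.0552), and without operated MRL replicate 4 the MRL change was 1.02 (adjusted p = 0.159).

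Scd1 stood at 72.8, 56.7, 56.5 and 71.6 CPM in unoperated and 119, 139, 234 and 582 CPM in operated BL6 libraries, without overlap and with a rise of 2.06 (SE 0.56, adjusted p = 0.00460). Without operated BL6 replicate 4 the rise was 1.34 (adjusted p = 0.0270). MRL libraries had 81.0, 116, 129 and 222 CPM unoperated and 146, 174, 600 and 771 CPM operated, a rise of 1.63 (SE 0.55, adjusted p = 0.0268) with overlap. Per kilobase Scd1 was the highest of the 10 members in both operated groups. Scd2, the desaturase form that many tissues share, had 38.5, 40.6, 25.5 and 23.2 CPM in unoperated and 37.1, 23.8, 48.7 and 82.4 CPM in operated BL6 libraries. It did not pass the test there (0.59, SE 0.30, adjusted p = 0.0885), though without operated BL6 replicate 2 it did (0.81, adjusted p = 0.0123). In MRL it had 47.0, 37.0, 31.6 and 32.8 CPM unoperated and 46.0, 29.5, 43.0 and 39.7 CPM operated, with a change of 0.09 (SE 0.30, adjusted p = 0.813). Scd1 and Scd2 transcripts are 86.5% identical over 1262 bases, so reads could in part be shared between them.

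Of the 9 members tested, 4 rose (Dgat1, Scd1, Fasn, Acaca), 3 fell (Agpat3, Lpin1, Acacb) and 2 did not pass the test in BL6, where 35.1% of all genes were called higher and 32.8% lower. In MRL the same 4 rose and the same 3 fell, beside 22.3% and 22.7% of all genes. The members' median log2 fold change was 0.59 in BL6 and 0.09 in MRL, against 0.04 and 0.01 over all genes, and without the 3 libraries that stand apart it was 0.17 and 0.21. In BL6 the fall of Agpat3, Lpin1 and Acacb and the rise of Dgat1, Scd1 and Acaca held when each library was left out in turn. In MRL only Lpin1 and Dgat1 kept their call in all 8 such fits.

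The other MRL calls each hung on several libraries. Agpat3 and Acacb lost theirs without unoperated MRL replicate 2, 3 or 4 or operated MRL replicate 1, 2 or 3 (adjusted p of 0.105 to 0.146 and of 0.0642 to 0.0936). Acaca and Fasn lost theirs without any 1 of the 4 unoperated MRL replicates or without operated MRL replicate 3 or 4 (adjusted p of 0.0527 to 0.127 and of 0.0546 to 0.159), and Scd1 likewise except for unoperated replicate 4 (0.0607 to 0.0870). Without the 2 MRL libraries that stand apart, 1 member rose (Dgat1) and 3 fell in MRL, and the changes of Scd1 (0.99), Fasn (0.93) and Acaca (0.62) had adjusted p-values of 0.170, 0.242 and 0.163. Without all 3 libraries, 2 rose and 4 fell in MRL, and 3 rose and 4 fell in BL6. Over all alternatives 3490 to 7303 genes were called in MRL and 6825 to 8183 in BL6, beside 5272 and 7950 with all libraries. The shares of all genes called higher or lower in the fits that leave out libraries are not given here or below. The authors' deposited table calls 6 of the 9 in BL6 at a false discovery rate under 0.05, without Fasn (0.128), and 7 in MRL. The share of all genes that it calls is not given here, so these counts cannot be read against it.

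**Figure D3:**
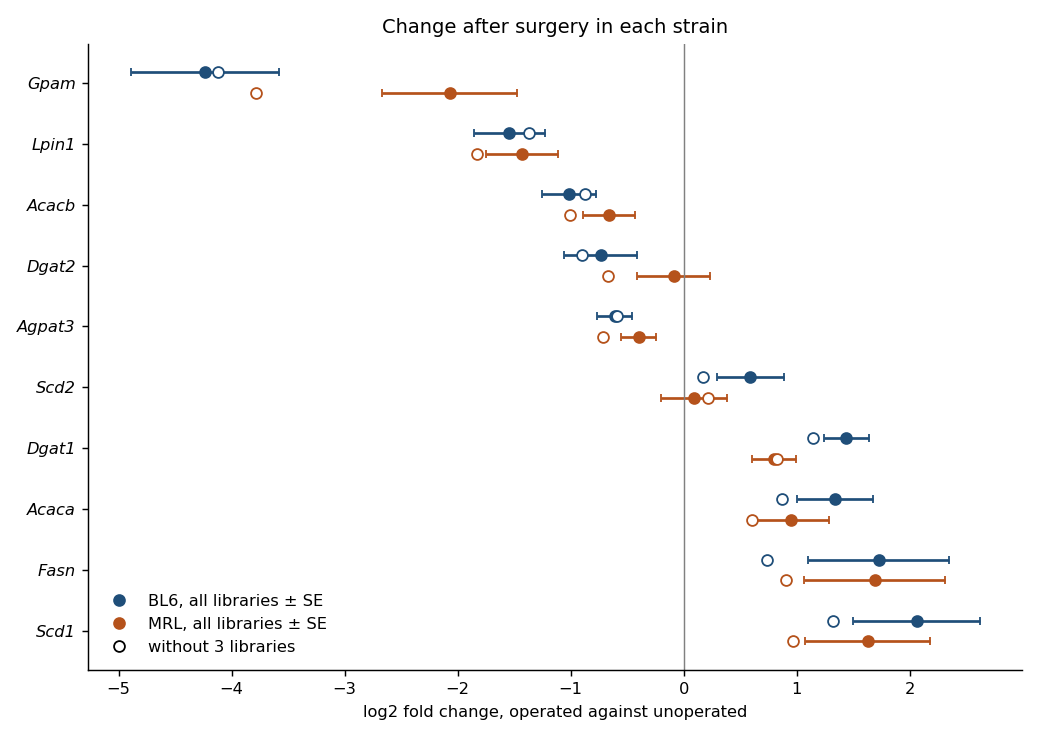
Log2 fold change of each gene, operated against unoperated, in BL6 and MRL (filled points with SE bars, all libraries) and without the 3 libraries that stand apart (open points). Gpam moves from -2.07 to -3.79 in MRL when they are left out, and Fasn from 1.72 to 0.74 in BL6, while no gene with a called change crosses 0.

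Ratios within a library do not depend on library scaling. The log2 ratio of Acaca to Acacb counts was -5.50 ± 0.34 in unoperated and -3.24 ± 1.16 in operated BL6 libraries (SD, n = 4), higher by 2.26, and in MRL it was higher by 1.48. Each had p = 0.0286 in a two-sided exact permutation test, the smallest p that 4 against 4 allows, and 0.0429 after Benjamini-Hochberg adjustment over the 6 ratio tests. Dgat1 to Dgat2 was higher by 2.08 after surgery in BL6 (exact permutation p = 0.0286, adjusted 0.0429) and by 1.05 in MRL (exact permutation p = 0.0857, adjusted 0.103). Scd2 to Scd1 changed by -1.28 in BL6 (exact permutation p = 0.0286, adjusted 0.0429) and by -1.27 in MRL (exact permutation p = 0.171, adjusted 0.171).

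**Figure D4:**
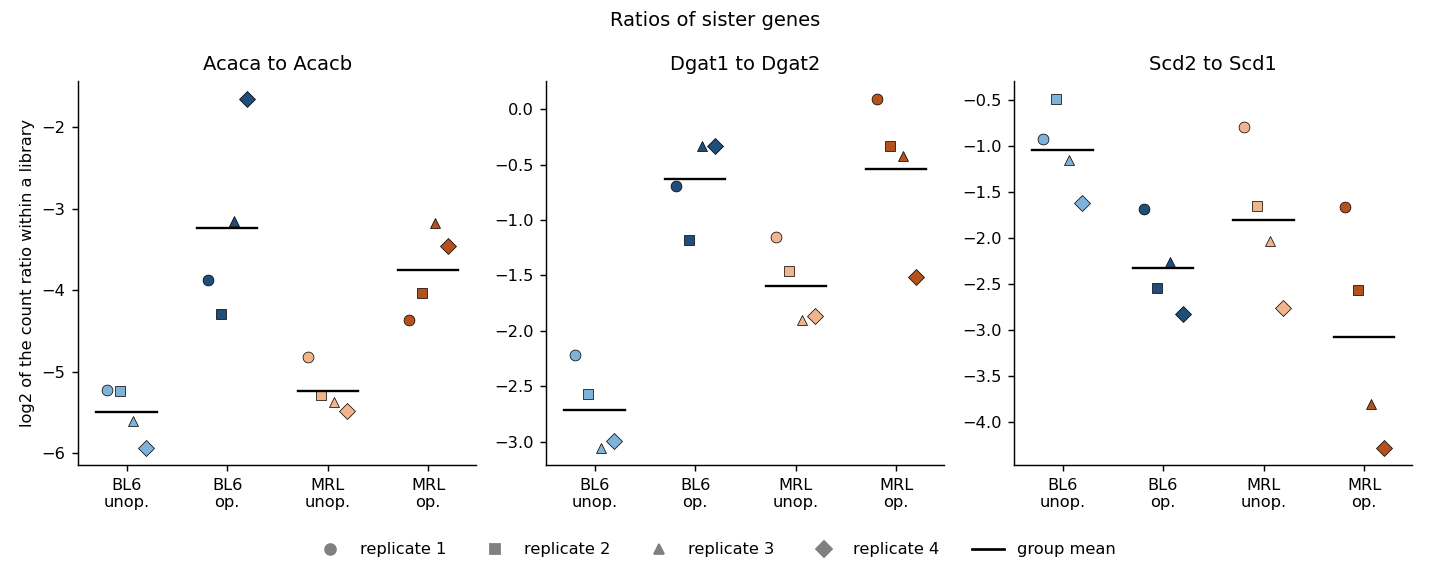
Log2 ratio of the counts of 2 related genes within each library, by group (unop., unoperated; op., operated), with bars at the group means. The Acaca to Acacb ratio of every operated library lies above those of its strain's unoperated libraries, whereas for Dgat1 to Dgat2 operated MRL replicate 4, at -1.51, lies among the unoperated MRL values.

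Markers of fat cells were higher in operated muscle. Beside 35.1% of all genes in BL6 and 22.3% in MRL, all 8 adipocyte markers analysed (of 9 listed) were called higher after surgery. Without the 2 MRL libraries, 5 of the 8 markers were called higher in MRL, and without the 3 libraries that stand apart all 8 were called higher in each strain. Their summed level was 228 to 313 CPM in unoperated and 1314 to 2414 in operated BL6 muscle, and 278 to 403 and 1541 to 2025 CPM in MRL. No marker had a count of 0 in any library.

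Within the operated groups the summed level did not follow Fasn and Scd1. It was 1652, 1314, 1416 and 2414 CPM in operated BL6 replicates 1 to 4 and 2025, 1541, 1917 and 1598 CPM in MRL, so that in MRL it was highest in replicate 1, where Fasn was lowest. Fabp4, a fatty acid binding protein of fat cells that endothelium also makes, supplied 80.7% of the sum over all libraries. Without Fabp4, a split made after the values were seen, the sum was 207, 89.1, 256 and 969 CPM in operated BL6 and 155, 173, 282 and 696 CPM in operated MRL libraries, highest in replicates 3 and 4 of both. Fibroblast markers summed to 1444, 906, 1553 and 5271 CPM in operated BL6 replicates 1 to 4. In operated MRL they summed to 1569, 1532, 2929 and 2905 CPM. Macrophage markers summed to 57.0, 34.8, 62.5 and 208 CPM, then 62.1, 52.2, 97.0 and 95.5 CPM. Both sums were also highest in replicates 3 and 4 of each operated group. Those of muscle fibre, endothelial and Schwann cell markers were not so in both groups. Adipoq, the fat cell hormone adiponectin, had 5.44, 4.33, 2.80 and 5.74 CPM in unoperated and 20.02, 8.13, 25.6 and 110 CPM in operated BL6 libraries, and 6.79, 6.52, 3.999 and 9.45 then 18.4, 18.3, 39.0 and 85.1 CPM in MRL. For 3 of the 8 markers (Adipoq, Plin1 and Retn) the 4 highest libraries were operated replicates 3 and 4, the same 4 as for Fasn and Scd1, and for the other 5 they were not. For 6 of the 8 the 2 highest libraries were replicate 4 of the operated groups, as for Fasn but not for Scd1. The part of fat cells in the rise of Fasn, Scd1, Acaca and Agpat2 was not tested. Gpam stood at 6.45 and 72.5 CPM, its lowest and highest operated values, in the 2 libraries with the most Adipoq.

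**Figure D5:**
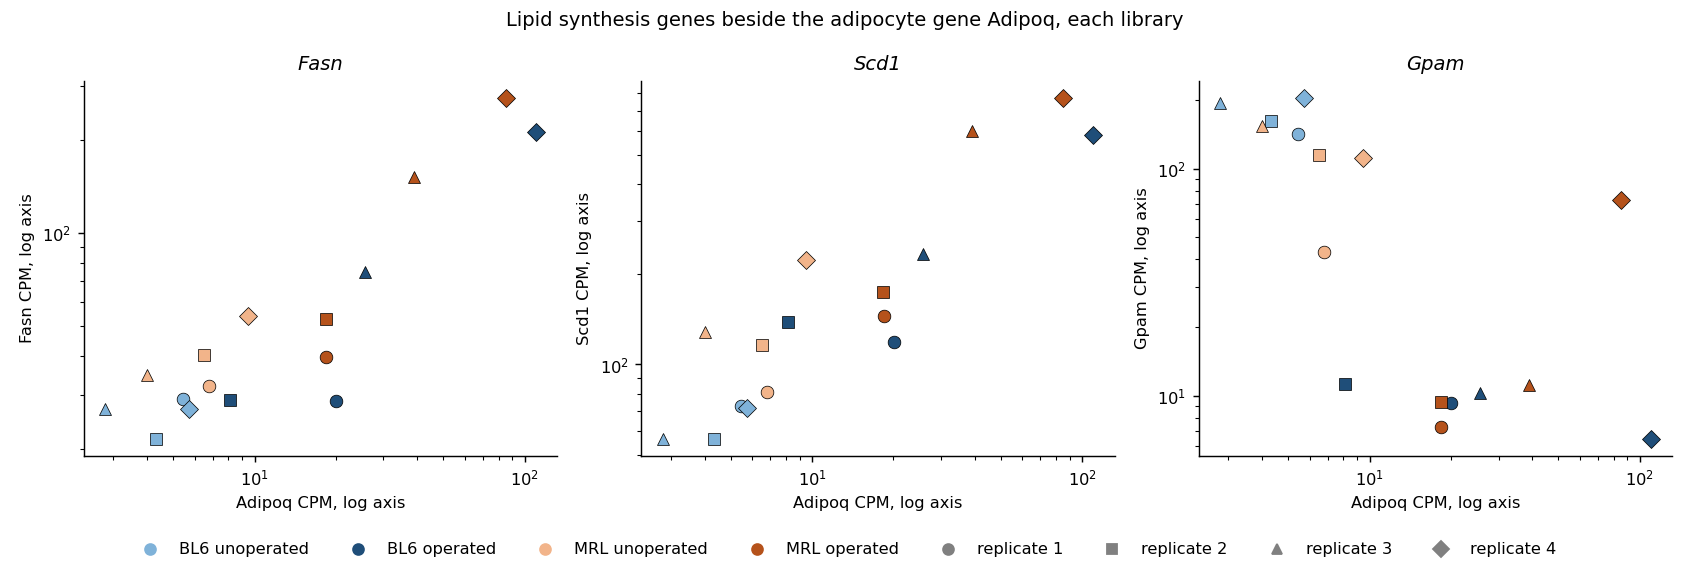
Fasn, Scd1 and Gpam in CPM against Adipoq in CPM (both axes log) in the 16 libraries, coloured by group and marked by replicate. Adipoq is 1 of 8 markers analysed, and the libraries with 25.6 CPM of it or more hold the highest Fasn and Scd1 values. Gpam is 6.45 CPM in operated BL6 replicate 4 (110 CPM of Adipoq) and 72.5 CPM in operated MRL replicate 4 (85.1 CPM).

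Markers of other cell types were counted too. Of all genes, 35.1% were called higher and 32.8% lower in BL6, and 22.3% and 22.7% in MRL. Summed muscle fibre markers were 118879 to 157459 CPM in unoperated and 52170 to 139143 CPM in operated BL6 muscle, and 108672 to 122230 and 70853 to 93179 CPM in MRL. Of 10 such markers, 3 fell and 1 rose in BL6, and 2 fell and 1 rose in MRL. The shares called lower, 30% and 20%, are near those of all genes. Endothelial markers rose in 4 of 5 cases in BL6 and 5 of 5 in MRL, and Schwann cell markers in 6 of 6 and 5 of 6. Macrophage markers were higher in 4 of 7 cases in BL6 and 1 of 7 in MRL, and fibroblast markers in 3 of 6 and 1 of 6. Without the 3 libraries that stand apart these counts were 6 and 5 of 7 for macrophage and 2 and 2 of 6 for fibroblast markers, and without the 2 MRL libraries 7 and 1 of 7 for macrophage markers. With all libraries, the MRL shares called higher of 14.3% (macrophage) and 16.7% (fibroblast) were not above that of all genes. The part of any of these cell types in the members' changes was not tested.

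Strain differences among the members were not called when all 4 groups were fitted together. For the difference between the surgery effects, 0 of 9 members passed edgeR's test, beside 0.248% of all genes. Dgat1, with a smaller rise in MRL by 0.64 on the log2 scale, was the 1 member with an unadjusted p under 0.05 (0.0341, adjusted 0.285). In the 26 alternatives, DESeq2 and limma voom included, 0 members were called for this difference, and the adjusted p of Dgat1 ranged from 0.0974 to 0.594.

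Among unoperated samples 0 of 9 members passed the test between strains, where 10.4% of all genes did. Dgat1 (0.43, adjusted p = 0.189) and Dgat2 (-0.73, adjusted p = 0.174) were the 2 with an unadjusted p under 0.05. Dgat1, Scd1 and Fasn were higher and Agpat3 lower in MRL without overlap, and 25.1% of all genes did not overlap between these groups. In a fit of the unoperated groups alone, Dgat1, Scd1 and Fasn were called higher in MRL (adjusted p of 0.0190, 0.0162 and 0.0215) and Dgat2 lower (0.0319), beside 20.8% of all genes. Among operated samples 0 of 9 passed, beside 12.9% of all genes, and none had an unadjusted p under 0.05. All 9 overlapped between the operated groups, and the share of all genes that did so is not given here.

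The other gene lists are read against the same shares of all genes, 35.1% higher and 32.8% lower in BL6 and 22.3% and 22.7% in MRL. Of 15 listed genes of the rest of glycerolipid synthesis 11 were analysed, and 4 rose, 4 fell and 3 did not pass the test in BL6 (median -0.15), with 3, 4 and 4 in MRL (median -0.10). The BL6 shares, 36.4% in each direction, are near those of all genes. Agpat2, the acyltransferase that fat cells depend on, rose by 1.36 (SE 0.49, adjusted p = 0.0225) in BL6 and 1.51 (SE 0.49, adjusted p = 0.0217) in MRL. Agpat2 was not called without operated BL6 replicate 4 (0.55, adjusted p = 0.221), nor in MRL without unoperated replicate 3 (1.41, adjusted p = 0.0630) or operated replicate 4 (0.95, adjusted p = 0.0948). Agpat4 rose by 1.55 and 0.75, and lost its MRL call without unoperated MRL replicate 2, 3 or 4 or operated MRL replicate 1 or 3. Gpd1, which makes glycerol-3-phosphate, fell by 1.45 (SE 0.28, adjusted p = 0.000365) and 1.17 (SE 0.28, adjusted p = 0.00478), its relative Gpd1l by 0.70 in each strain, and Lclat1, which remodels cardiolipin, by 0.90 and 0.66.

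Of 21 genes of fatty acid supply, elongation and desaturation analysed (28 listed), 11 rose and 6 fell in BL6 and 9 rose and 7 fell in MRL, with medians of 0.65 and 0.66. The shares called higher were 52.4% and 42.9%, and those called lower 28.6% and 33.3%. Without the 3 libraries that stand apart 9 rose and 7 fell in BL6 (median 0.30) and 10 rose and 8 fell in MRL (0.64), and without the 2 MRL libraries 8 rose and 7 fell in MRL. Slc25a1, the citrate carrier, rose by 2.10 (SE 0.51) and 1.68 (SE 0.50), the elongase Elovl5 by 1.64 and 1.33, and Thrsp, a lipogenic protein induced by thyroid hormone, by 1.65 and 1.22. Acly, which makes cytosolic acetyl-CoA, rose by 1.19 and 0.93, whereas Me1, a source of NADPH, fell by 1.03 and 0.70. Fads6 fell by 1.94 and 1.46, Oxsm, of mitochondrial fatty acid synthesis, by 1.56 and 0.82, and Hacd1, an elongation enzyme of muscle, by 1.26 and 1.09. Without operated BL6 replicate 4 the BL6 rise of Slc25a1 was 1.28, and without operated MRL replicate 4 the MRL change of Fads6 was -2.10. In MRL, Slc25a1 was not called without the 2 MRL libraries (1.34, adjusted p = 0.0601). Me1 lost its MRL call without unoperated MRL replicate 3 or operated MRL replicate 1 or 3. Acly and Me1 were named after their values were seen.

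Long-chain acyl-CoA synthetases, which activate fatty acids, all changed. Of 5, 4 fell and 1 rose in each strain, with medians of -1.31 and -0.81. Acsl3 fell by 1.86 (SE 0.19) in BL6 and 1.55 (SE 0.19) in MRL, Acsl1, the main form of muscle, by 1.51 and 0.73, and Acsl4 by 1.31 and 0.81. Acsl5 rose by 1.37 and 0.84. In MRL, Acsl1 lost its call without unoperated replicate 2, 3 or 4 or operated replicate 1, 2 or 3 (adjusted p of up to 0.109). The counts of 4 and 1 were the same without the 2 and without the 3 libraries that stand apart.

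The phospholipid branch, which competes for the same diacylglycerol and phosphatidate, had 4 genes higher and 6 lower of 16 in BL6 and 3 higher and 5 lower in MRL (medians 0.02 and -0.05). The shares called higher were 25% and 18.8%, beside 35.1% and 22.3% of all genes. Those called lower were 37.5% and 31.2%, beside 32.8% and 22.7% of all genes. Pcyt1a, the rate-setting enzyme of phosphatidylcholine synthesis, fell by 1.39 (SE 0.21) and 1.02 (SE 0.21), Chpt1, which makes phosphatidylcholine, by 0.98 and 0.43 (in MRL not called without unoperated replicate 2, 3 or 4 or operated replicate 1, 2 or 3), and Selenoi, which makes phosphatidylethanolamine, by 0.78 and 0.53. Choline kinase Chkb rose in BL6 (1.197) and in MRL by 0.79, cardiolipin synthase Crls1 rose by 0.49 and 0.43, and Chka rose in BL6 by 0.62 and had a log2 fold change of 0.22 in MRL (adjusted p = 0.252).

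Of 23 lipogenic regulators, 7 rose and 7 fell in BL6 and 4 rose and 8 fell in MRL (medians 0.05 and -0.03). The shares called higher were 30.4% and 17.4%, beside 35.1% and 22.3% of all genes. Those called lower were 30.4% and 34.8%, beside 32.8% and 22.7% of all genes. The adipogenic factors Cebpa and Pparg rose by 2.45 (SE 0.60) and 2.01 (SE 0.25) in BL6 and by 1.75 (SE 0.58) and 1.59 (SE 0.24) in MRL. Without operated BL6 replicate 4 the BL6 rise of Cebpa was 1.49, and its MRL call was lost without unoperated MRL replicate 2, 3 or 4 or operated MRL replicate 3 or 4. Foxo1 rose by 0.64 in BL6 and stood at 0.08 in MRL (adjusted p = 0.678). AMP-activated protein kinase phosphorylates and inhibits acetyl-CoA carboxylase, and its 6 listed subunits differed. Prkab2 fell by 2.17 and 1.21 and Prkaa2 by 1.97 and 1.18. Prkag3 fell in BL6 (log2 fold change -0.86) and Prkag1 in MRL (-0.25), while Prkab1 rose in BL6 (0.34) and Prkaa1 in MRL (0.29), and these 4 did not pass the test in the other strain with all libraries. In MRL, Prkag3 was called lower without operated MRL replicate 4 (-0.52, adjusted p = 0.0497) and without the 2 MRL libraries (-0.57, adjusted p = 0.0427). Without the 3 libraries that stand apart, Prkag3 (-0.59, adjusted p = 0.0286) and Prkab1 (0.30, adjusted p = 0.047) were both called in MRL. The MRL calls of Prkag1 and Prkaa1 and the BL6 call of Prkab1 were each lost when some single libraries were left out, operated MRL replicate 1 for the first pair and operated BL6 replicate 4 for Prkab1 among them. The 4 were named after their values were seen. The transcriptional coactivator Ppargc1b fell by 1.42 and 0.98 (in MRL not called without operated replicate 3, adjusted p = 0.0541). Srebf1, the best-known activator of Fasn and Scd1, had a log2 fold change of -0.40 in BL6 (adjusted p = 0.126) and fell in MRL by 0.65 (adjusted p = 0.0290). It was called lower in BL6 without operated BL6 replicate 4 (-0.63, adjusted p = 0.0171), and lost its MRL call without unoperated MRL replicate 2 or operated MRL replicate 1, 2 or 3. It was named after its values were seen.

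On the breakdown side, 3 of 8 genes rose and 1 fell in BL6, and 2 rose and 1 fell in MRL (medians -0.11 and 0.09). The shares called higher, 37.5% and 25%, are near the 35.1% and 22.3% of all genes. The share called lower was 12.5% in each strain, beside 32.8% and 22.7% of all genes. Without the 3 libraries that stand apart 3 fell in BL6 and 2 in MRL. Monoglyceride lipase Mgll rose by 1.31 and 1.34 and hormone-sensitive lipase Lipe by 1.17 and 1.27. G0s2, an inhibitor of triglyceride lipase, rose in BL6 by 1.11 and stood at 0.07 in MRL (adjusted p = 0.835). Abhd5, the activator of that lipase, fell by 0.60 and 0.43.

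The genes whose pattern over the 16 libraries was nearest to that of Gpam were Pdpr, Adcy9, Atg9a, Hipk2 and Kcna7. Likeness was the root mean square difference of log2 CPM after centring each gene, which was 0.29 for Pdpr, 0.36 for Adcy9, 0.40 for Atg9a, 0.42 for Hipk2 and 0.44 for Kcna7. Pdpr, a regulatory subunit of pyruvate dehydrogenase phosphatase, had 100.2, 86.6, 138 and 147 CPM in unoperated and 6.42, 6.62, 4.72 and 3.33 CPM in operated BL6 libraries. Its MRL values were 25.7, 91.5, 111 and 87.7 CPM unoperated and 5.603, 5.86, 4.30 and 57.1 CPM operated, with the low unoperated replicate 1 and the high operated replicate 4 of Gpam. Adcy9 is an adenylate cyclase, Atg9a an autophagy membrane protein, Hipk2 a nuclear kinase and Kcna7 a potassium channel. The 5 genes had log2 fold changes of -4.49 to -3.39 in BL6 and of -2.28 to -1.61 in MRL, given as a description since likeness to Gpam chose them. Among the members, Lpin1 ranked 194 and Acacb 824 of 11708 genes in likeness to Gpam, while Scd1 ranked 11103. Leaving out each library in turn kept 4 or 5 of the 5 genes.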

How the data were processed

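RNA of 16 rotator cuff muscle samples was sequenced by the submitters. The series text and the sample labels name different muscles of the cuff, so it is called rotator cuff muscle. The authors deposited a table of raw, whole-number counts, with 1 column per sample. The submitters' processing notes name FastQC, STAR, edgeR and the build mm10, and the counting program and its use of strand are not given in the sources used here. The authors also deposited log2 fold changes and p-values with false discovery rates, per the file headers, and the comparison with them is given where named.

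The members and gene lists were chosen with earlier results of these data known. In R 4.3.3, counts were scaled by TMM, filtered with filterByExpr (minimum count 10) and fitted with edgeR 4.0.16's quasi-likelihood test, with 1 mean per group over all 16 samples. P-values were adjusted by Benjamini-Hochberg over 11709 genes, with calls made below 0.05. Gpam was not tested. CPM use TMM-scaled library sizes, and log2 CPM a prior count of 2. Ratios were tested with SciPy 1.17.1. From each pathway list up to 3 called genes with the largest mean rise and up to 3 with the largest mean fall were named, with Gpat3, Gpat4, Lpin2, Acly, Me1, Srebf1 and 4 kinase subunits added after their values were seen. Gene IDs were matched to GENCODE M21 (11708 of 11710), and similar transcripts were sought with BLAST 2.17.0. The test was tried on simulated data first. No 2 libraries of a group agreed within sampling noise (chi-square per degree of freedom of at least 14.8), so none was treated as a library deposited more than once, which does not show that they came from separate animals. Depth of 24323862 to 43552964 counts per library sets the precision of low genes. Alternatives were DESeq2 1.42.0, limma 3.58.1 voom, other scalings and filters, a replicate block, only the groups compared, and leaving out libraries.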

Additional observations from a re-analysis of the deposited data

Results flagged for a closer look

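In 52 groups of 4 libraries (the CPM of the 10 members and the 3 log2 ratios), the highest or lowest library was compared with the rest by Dixon's ratio of its gap to the range, and chance alone marks about 1 group in 20. Gpam in operated MRL muscle was marked for replicate 4, at 72.5 CPM, with a gap of 0.942 of the range. Acacb in operated MRL muscle was marked for the same library, at 251 CPM, with a gap of 0.883 of the range. Agpat3 in unoperated MRL muscle was marked for replicate 1, at 84.1 CPM, with a gap of 0.857 of the range. All 3 lie in libraries named above as standing apart, and no cause was tested.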

How the results depend on the processing

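Members called higher after surgery in MRL numbered 4, and 2 with library totals alone, 1 with limma voom, 1 without the 2 MRL libraries and 2 without the 3 libraries that stand apart. The share of all genes called higher in each of these alternatives is not given here. Leaving out 1 library at a time gave 1 to 4 members higher, 1 to 3 lower and 3490 to 6145 genes in all in MRL (5272 with all libraries), the lowest without operated MRL replicate 3. Genes called for the strain by surgery interaction numbered 29, and 14 with library totals, 250 with DESeq2, 2 with the replicate block, 67 without the 3 libraries and 1 to 69 on leaving out 1 library. With only the groups compared, the unoperated strain difference had 3 members higher, 1 lower and 2438 genes in all (1216 with all groups), and the operated one 574 (1507). The Gpam difference between operated strains of 1.43 ranged from -0.0123 (without operated MRL replicate 4) to 1.74 on leaving out 1 library, and was -0.0122 without the 2 MRL libraries and -0.14 without the 3. The cause of these shifts was not tested.

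The replicate numbers were not taken as pairs, since in no comparison did every same-numbered pair correlate above 0.1. In the surgery comparison the correlation of same-numbered deviations ranged from -0.474 to 0.107 in BL6 and from -0.245 to 0.267 in MRL, and 0 and 2 of 4 samples correlated best with their own number. Between strains it ranged from -0.110 to 0.360 in unoperated and from -0.0958 to 0.453 in operated samples, with 2 of 4 best with their own number in each and means of 0.160 and 0.165 against -0.0463 and -0.0443 for other numbers. With the replicate block, Dgat2 in BL6 was called lower (adjusted p = 0.0155). Exchanging within numbers, the ratio changes stayed at 2.26 and 1.48 (Acaca to Acacb in BL6 and MRL), 2.08 (Dgat1 to Dgat2, BL6) and -1.28 (Scd2 to Scd1, BL6), with an exact p of 0.125, the smallest that 4 pairs allow. Of 171 alternative values for the 9 members tested in BL6, 158 kept direction and side of the threshold, 4 lost the call and 9 gained it; in MRL 128 kept it, 42 lost it and 1 gained it.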
